A study of Mus musculus with 4 samples.

Results

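The immunoglobulin heavy variable (Ighv) segments are the genes from which a developing B cell takes the first part of its antibody heavy chain, and their transcripts were followed here through bone marrow of wild type (WT) and Cyba knockout mice. Members were all rows of the deposited gene tables whose GENCODE vM21 symbol starts with Ighv. This gave 147 of the 22520 genes in the tables, 111 annotated as functional variable genes and 36 as pseudogenes. GENCODE vM21 lists 185 genes with such symbols, and the others were not analysed here. The libraries came from 2 WT and 2 Cyba -/- mice on the C57BL/6 strain, 1 library per mouse. The labels used here state no age, and the only allele that the labels name is Cyba -/-, whose gene encodes p22phox, the partner that holds NADPH oxidases in the membrane and without which they make no superoxide. In every group the material was marrow flushed from leg and hip bones, cleared of red cells and passed through a magnetic depletion of lineage-bearing cells, a step meant to leave stem and progenitor cells and to remove mature B cells. According to the series title, mice lacking Cyba have more haematopoietic stem cells and form myeloid cells at the cost of B cells, and the comparison below asks which Ighv segments were transcribed, and how evenly, in each genotype.

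Each B cell precursor joins 1 variable segment to a diversity (D) and a joining segment by RAG recombination, and the joined gene is then transcribed together with a constant region such as Ighm or Igha. Antibody-secreting plasma cells live in the bone marrow and carry very large amounts of this transcript, so that a small number of them can dominate the Ighv reads of a whole marrow fraction. The segments form families by sequence, of which Ighv1 (J558) is by far the largest in the mouse, and families such as Ighv2 and Ighv5 lie nearest the D segments. In bulk RNA, fewer cells of a type and less RNA per cell cannot be told apart, and reads of 1 expanded plasma cell clone cannot be told from reads of many cells that use the same segment.

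The libraries held between 22251882 and 23550027 estimated reads after a repair of lost decimal points, summed over 4 lanes. Cyba itself stood at 1347 and 875 reads in WT replicates 1 and 2 and at 28 and 32 reads in knockout replicates 1 and 2, in the direction of the labels. Kit, the receptor tyrosine kinase of stem and progenitor cells, stood at 268 and 303 CPM (estimated reads per 1000000 reads of the TMM-scaled library size) in WT and at 222 and 292 CPM in the knockout. B-cell genes were also present at low levels in all libraries, with Cd79b, a signalling chain of the B-cell receptor, at 21.1, 14.4, 28.2 and 24.9 CPM in WT replicates 1 and 2 and knockout replicates 1 and 2. Values of the 4 libraries are given in this order throughout. Of the 2352 Ighv count values, 50.4% had more than 1 possible reading because of the lost points. Readings were settled in all 4 libraries for 104 segments, whereas 43 segments were unsettled in at least 1 library. The settled segments held 81.8%, 71.6%, 70.1% and 78.6% of the Ighv reads. The expected error of the repair came to 4.41%, 2.80%, 2.06% and 1.71% of the Ighv total. Shares below use all 147 segments at their most probable reading, and tests use settled segments only.

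The germline ends of the segments that carry most of the results are printed first, to show how alike they are. All lie on the minus strand of chromosome 12 in GRCm38. Each line, taken from the longest GENCODE vM21 transcript of the segment, gives the last bases of the germline segment, 5′ to 3′, with the codon of the conserved cysteine and all that follows it in capitals. The bases after this codon are the germline start of the third complementarity-determining region, where joining adds D and joining bases. The first 4 segments each led 1 library by read count, Ighv7-1 was among the 10 leading segments, the next 4 were called higher in the knockout with DESeq2, and Ighv1-47 and Ighv12-3 were lower in both knockout libraries. Ighv11-2 is shown as the companion of Ighv12-3, since both are known from antibodies of mouse B-1 cells that bind phosphatidylcholine.
Ighv6-3, chr12:114391712-114391767: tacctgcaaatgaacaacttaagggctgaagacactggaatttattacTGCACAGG
Ighv1-19, chr12:114708648-114708704: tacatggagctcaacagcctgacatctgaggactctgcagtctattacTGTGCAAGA
Ighv1-26, chr12:114788372-114788428: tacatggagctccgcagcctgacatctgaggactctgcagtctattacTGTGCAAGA
Ighv1-72, chr12:115757984-115758040: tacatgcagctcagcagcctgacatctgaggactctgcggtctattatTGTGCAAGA
Ighv7-1, chr12:113896408-113896470: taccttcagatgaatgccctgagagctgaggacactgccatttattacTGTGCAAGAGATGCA
Ighv1-66, chr12:115593110-115593166: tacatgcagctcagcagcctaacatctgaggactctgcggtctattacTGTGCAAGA
Ighv1-85, chr12:116000028-116000084: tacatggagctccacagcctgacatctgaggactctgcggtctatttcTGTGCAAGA
Ighv1-42, chr12:114937113-114937169: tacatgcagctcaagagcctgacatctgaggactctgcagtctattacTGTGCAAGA
Ighv1-74, chr12:115802648-115802704: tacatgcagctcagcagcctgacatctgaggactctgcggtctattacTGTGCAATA
Ighv1-47, chr12:114991108-114991164: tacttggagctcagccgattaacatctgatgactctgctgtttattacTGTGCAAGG
Ighv12-3, chr12:114366521-114366582: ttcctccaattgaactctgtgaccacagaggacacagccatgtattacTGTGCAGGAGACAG
Ighv11-2, chr12:114048241-114048299: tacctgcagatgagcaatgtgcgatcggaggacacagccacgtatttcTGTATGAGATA

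A cysteine codon at the end was found in 133 of the 147 segments. The 9 letters TGTGCAAGA directly from that codon on, searched only at this place and on the coding strand, were present in 80 of 147 segments, 54.4%. By reads, segments with these letters made up 59.3% and 80.3% of Ighv reads in the WT libraries and 72.7% and 75.2% in the knockout libraries. The end is thus shared by segments of different families, while Ighv6-3 carries a different cysteine codon and Ighv12-3 and Ighv11-2 differ after it. Over whole transcripts, 55 of the 147 segments shared more than 50% of their 31-base words with other annotated Ighv segments, and the median was 42.5%. Weighted by reads, the shared portion was 44.0% and 45.5% in WT and 50.3% and 50.04% in the knockout. Counts of close copies therefore depend on how the authors' estimation divided reads between them.

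The amount of Ighv transcript differed more between mice of 1 genotype than between genotypes. All segments together gave 3072, 717, 4823 and 1882 CPM. Knockout replicate 1 was the highest and WT replicate 2 the lowest library, and WT replicate 1 lay between both knockout libraries, so that the groups overlapped. The means were 1894 ± 1665 CPM in WT and 3352 ± 2080 CPM in the knockout (SD, n = 2). The difference of 1.02 on the log2 scale, higher in the knockout, gave p = 0.667 in a two-sided exact permutation test, for which the smallest possible p with these 4 libraries is 0.333. Without WT replicate 2 the difference was -0.028. Each library was 1 mouse and each genotype had n = 2, so no single value below can reach the usual threshold with this test.

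Most genes of antibody-secreting cells, 12 of the 14 on the list used here, had the same order of libraries as the Ighv total. So did the sum of the heavy constant genes, but of these 8 genes only Igha had it singly (5563.5, 1449.1, 15333.5 and 5130.2 CPM). Ighm, for example, was highest in WT replicate 1 (7588, 939, 3544 and 2082 CPM). How many of all genes had this order was not counted. Jchain, the chain that joins IgA and IgM units, stood at 1750, 382, 3125 and 1032 CPM, and the 8 heavy constant genes together at 13792, 2491, 19597 and 7691 CPM. Xbp1, the transcription factor of the secretory programme, stood at 249, 120, 356 and 207 CPM. The exceptions among the 14 were Prdm1 and Ell2. Prdm1, a repressor needed for plasma cells, had 13.9, 2.43, 11.9 and 6.58 CPM. Ell2, an elongation factor that favours the secreted heavy chain, had 54.2, 78.9, 43.6 and 55.3 CPM. Summed over the 14 genes, levels were 2566, 823, 4174 and 1674 CPM. All 14 were tested, and 13 had a log2 fold change above 0, against 49% of all tested genes. The median was 0.50 against -0.0073 over all tested genes, and 0 passed with edgeR or DESeq2. Cells of the T lineage, which the depletion should also remove, moved in the same order at far lower levels, with 5 T-cell genes summing to 23.7, 8.33, 32.8 and 15.0 CPM. Outside the lymphoid lists, Mcpt8 of the basophil and myeloid list (382, 143, 512 and 220 CPM) had this order. So did Cd34 of the stem and progenitor list (271, 157, 279 and 190 CPM). The other members of those lists, Lyz2, S100a8, Kit and Flt3, had other orders. Flt3 (122, 67.5, 120 and 78.3 CPM) was high in both libraries numbered 1. The part that carry-over of mature cells plays in the Ighv level was not tested.

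**Figure D1:**
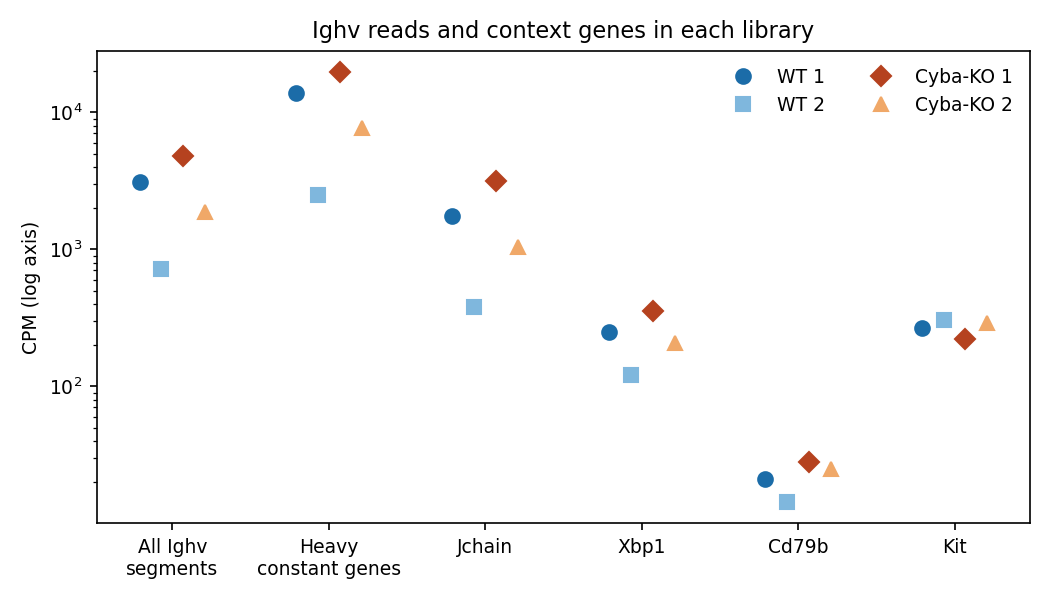
Level of all Ighv segments together, of the heavy constant genes and of 4 single genes in CPM on a log axis, 1 point per library (n = 2 per genotype, no error bars). Ighv reads ran from 717 CPM in WT replicate 2 to 4823 CPM in knockout replicate 1. The sum of the heavy constant genes and Jchain also show this order. Kit varied little, but Cd34 of the same stem and progenitor list, not drawn here, had the order of the Ighv total.

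Relative to the constant regions, Ighv reads varied far less than in CPM. There were 0.223, 0.288, 0.246 and 0.245 Ighv reads per heavy constant read. The knockout libraries lay between the WT libraries (difference -0.045 on the log2 scale, two-sided exact permutation p = 1.0). The constant regions themselves differed in make-up: Ighm gave 55.0% and 37.7% of heavy constant reads in WT and 18.1% and 27.1% in the knockout, and Igha 40.3% and 58.2% against 78.2% and 66.7%, without overlap of the genotypes for either gene. With edgeR neither Ighm (log2 fold change -0.60, SE 0.99, adjusted p = 0.876) nor Igha (log2 fold change 1.55, SE 0.86, adjusted p = 0.844) passed.

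At the most probable readings each library was led by a different segment. Ighv6-3 (ENSMUSG00000076677, GRCm38 chromosome 12, 114391712 to 114392169) was first in WT replicate 1 with 11.8% of its Ighv reads, with a 95% Wilson interval of 11.6 to 12.1%. Ighv1-19 (chromosome 12, 114708648 to 114709135) was first in WT replicate 2 with 9.87% (9.41 to 10.3%). Ighv1-26 (chromosome 12, 114788372 to 114788805) was first in knockout replicate 1 with 9.10% (8.93 to 9.27%), and Ighv1-72 (chromosome 12, 115757984 to 115758461) was first in knockout replicate 2 with 9.11% (8.84 to 9.38%). The intervals cover counting error only, and the reads carry no molecular identifiers. The reading of Ighv1-19 in WT replicate 2 was not settled, with an expected error of 96.5 of 1574 reads. At its next lower reading Ighv1-26 would lead that library with 8.89%. Ighv1-55 in WT replicate 2 was read as 326 reads with an expected error of 15.4, settled only through the tie between libraries. At its next higher reading of 3256 reads it would lead WT replicate 2 with 17.2%. Segments differ in annotated transcript length, from 350 to 415 bases among the 10 leading ones, and in TPM, which is per length, Ighv1-26 came first in WT replicate 2 with 8.31% of Ighv TPM, ahead of Ighv1-19 with 7.49%. In TPM the other three libraries kept the leaders named above.

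Between libraries the same segment could move by several fold in share. Ighv6-3 took 11.8%, 1.76%, 7.55% and 2.95% of Ighv reads. It was high in both libraries numbered 1 and low in both numbered 2, so the genotypes overlapped. Ighv1-26 took 4.50%, 8.10%, 9.10% and 3.76%, and here 1 library of each genotype was high. Ighv1-19 took 3.31%, 9.87%, 8.64% and 1.27%, with the same libraries high and low as for Ighv1-26. Ighv1-72, known as the segment that leads the response of C57BL/6 mice to the hapten nitrophenyl, took 1.14%, 3.72%, 1.09% and 9.11%. Its level of 35.0 and 26.7 CPM in WT against 52.4 and 171 CPM in Cyba -/- mice did not overlap, but knockout replicate 2 alone was far above the rest (log2 fold change 1.86, SE 0.61, adjusted p = 0.844 with edgeR's quasi-likelihood test and 0.137 with DESeq2). Without knockout replicate 2 the log2 fold change was 0.76. Of its 31-base words 98.1% occur in other segments, and Ighv1-62-3, identical to it at 393 of 396 aligned bases, held 29.0, 1.33, 40.4 and 0 reads.

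Ighv7-1 was spread more evenly than these 4. This segment, known from the anti-phosphorylcholine antibodies of the T15 idiotype, took 5.25%, 6.44%, 4.01% and 3.68% of Ighv reads, highest in both WT libraries. Only 6.01% of its 31-base words occur in another segment, and it had no unsettled reading, so its values are among the best determined here. In CPM it stood at 161, 46.2, 194 and 69.3, with overlap of the genotypes (log2 fold change 0.34, SE 0.77, edgeR adjusted p = 0.912). Ighv3-6 took 4.01%, 3.67%, 1.59% and 4.11%, Ighv1-15 took 5.45%, 2.38%, 1.85% and 2.27%, and Ighv1-78 took 1.20%, 4.54%, 0.449% and 3.78%. Ighv1-53 took 5.33%, 1.31%, 5.04% and 2.18%, again high in the libraries numbered 1, and Ighv1-55 took 7.53%, 2.04%, 1.501% and 5.06%, where the value of WT replicate 2 carries the doubt given above. None of these 6 settled segments passed with edgeR or DESeq2.

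**Figure D2:**
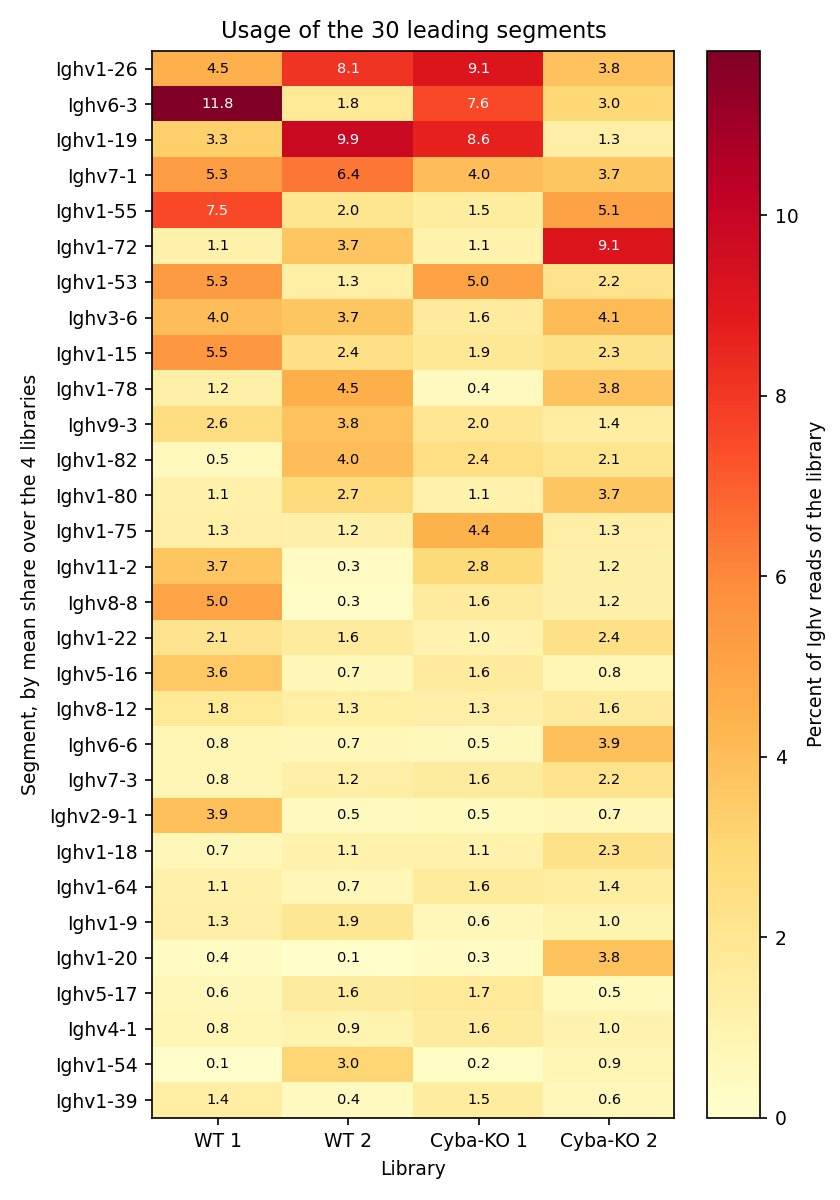
Percent of Ighv reads held by the 30 segments with the highest mean share (rows) in the 4 libraries (columns), with colour and printed number giving the percent. The leaders are Ighv6-3 at 11.8% in WT replicate 1, Ighv1-19 at 9.87% in WT replicate 2, Ighv1-26 at 9.10% in knockout replicate 1 and Ighv1-72 at 9.11% in knockout replicate 2.

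Some segments were abundant in a single mouse. A segment was counted when 1 library had at least 100 of its reads and at least 5 times the share of every other library, a rule chosen after the values were seen, and 6 segments met it. Ighv5-12 held 3801 reads in knockout replicate 1, 3.53% of its Ighv reads, against 83.2, 1.02 and 66.5 reads in WT replicates 1 and 2 and knockout replicate 2. Ighv6-6 with 3.89% and Ighv1-20 with 3.82% were such segments of knockout replicate 2, where no other library exceeded 0.773% and 0.367%, and Ighv9-2 took 0.875% there against at most 0.0779% elsewhere. Ighv2-9-1 took 3.91% in WT replicate 1 against at most 0.735% elsewhere, but its reading in that library was not settled, with an expected error of 933 of 2834 reads. Ighv2-5 took 1.29% in WT replicate 2. Of the 6, only Ighv6-6 and Ighv2-5 were settled in all libraries. For Ighv5-12 the unsettled reading was that of knockout replicate 2, where the expected error was 4.60 of 66.5 reads.

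As a measure of how alike 2 mice were, the smaller of both shares was summed over all segments, so that 100% would mean equal usage. The WT libraries shared 54.8% of their usage and the knockout libraries 57.7%. Pairs of 1 WT and 1 knockout library shared 65.7%, 59.1%, 64.7% and 65.5%, so that all 4 mixed pairs were above both pairs of equal genotype. Over settled segments only, the pairs of equal genotype shared 57.0% and 61.3%, and the mixed pairs 70.5%, 61.5%, 63.9% and 71.8%. In both sets the first and the last mixed pair joined libraries of the same number, and these pairs were the most alike. Among the 10 leading segments of each library, 3 were common to the WT libraries, 3 to the knockout libraries and between 4 and 6 to the mixed pairs. These pairs share libraries, and the values are a description with no test.

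Dominance was moderate in all mice, and no measure of it separated the genotypes beyond what 4 libraries can show. The most abundant segment took 11.8%, 9.87%, 9.10% and 9.11% of Ighv reads, 10.8% ± 1.38 in WT and 9.10% ± 0.00836 in the knockout (SD, n = 2). Both knockout libraries were below both WT libraries, with a two-sided exact permutation p of 0.333, the smallest possible. This order rests on the unsettled reading of Ighv1-19, since at its next lower reading WT replicate 2 would stand at 8.89%. In TPM the leading shares were 12.4% and 8.31% in WT and 9.55% and 6.67% in the knockout, and the genotypes overlapped. The 5 most abundant segments took 35.4%, 33.0%, 34.7% and 26.0%. Only knockout replicate 2 was lower, and the genotypes overlapped (exact permutation p = 0.667). 50% of all Ighv reads were reached with 9, 11, 11 and 13 segments.

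At the most probable readings the diversity of usage did not separate the genotypes either. The effective number of segments, the number of equally used segments that would give the same Shannon entropy, was 36.7, 45.5, 44.8 and 51.1. Wild type replicate 1 was the least diverse library and knockout replicate 2 the most diverse, while WT replicate 2 and knockout replicate 1 were nearly equal. The means were 41.1 ± 6.26 in WT and 47.9 ± 4.40 in the knockout (SD, n = 2, two-sided exact permutation p = 0.667). The Simpson form, which weighs leading segments more, gave 23.0, 28.3, 27.7 and 34.7, in the same order (exact permutation p = 0.667). With Ighv1-55 at its next higher reading WT replicate 2 would have 36.7 (Shannon) and 18.3 (Simpson), and both WT libraries would then lie below both knockout libraries. At an equal depth of 15960 Ighv reads, the total of WT replicate 2, the expected number of segments with a read was 110, 105, 112 and 112. It was higher in both knockout libraries (exact permutation p = 0.333), but without pseudogenes the difference of 4.52 segments turned to -0.84.

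**Figure D3:**
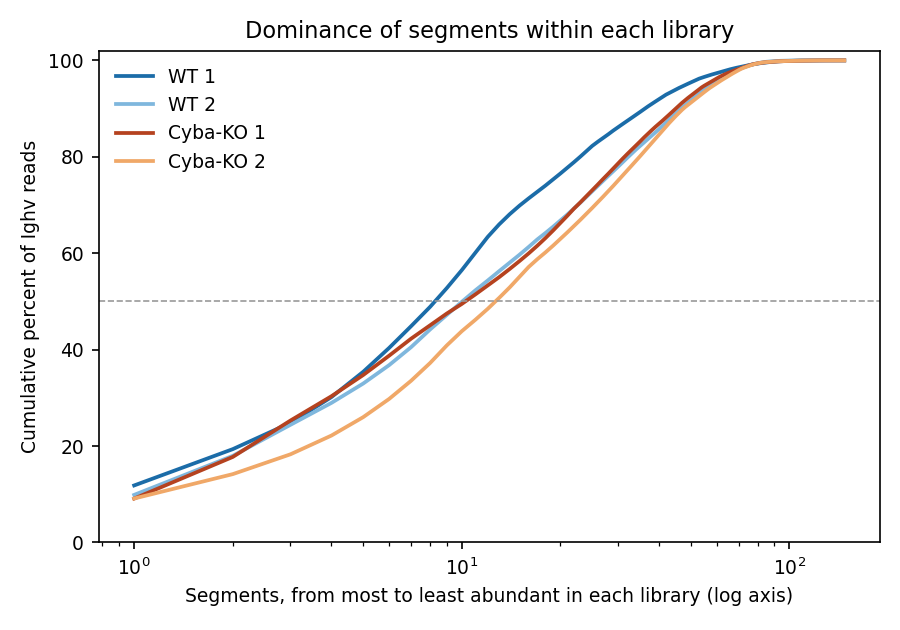
Cumulative percent of Ighv reads against the number of segments, ranked from most to least abundant within each library (log axis), with 1 line per library and a dashed line at 50%. The lines cross 50% at 9 segments in WT replicate 1, 11 in WT replicate 2 and knockout replicate 1, and 13 in knockout replicate 2.

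The test across all genes called no segment with edgeR. Of the 104 settled segments, 56 passed the filter on low counts and 48 did not. Among all 13804 genes tested, 0 passed an adjusted p of 0.05 with edgeR's quasi-likelihood test (0% of genes), which was also the count among segments. DESeq2 called 43 genes, 0.312% of those tested, and 5 of the 56 segments, all higher in the knockout. It gave no adjusted p for some of the 56, among them Ighv12-3. The edgeR likelihood ratio test also called 5 segments at a background of 0.239%. At an unadjusted edgeR p under 0.05 there were 12 segments higher, against 2.8% of all genes, and 2 lower, against 0.456% of all genes (14 in either direction, against 3.26%). With the replicate number as a block 17 of the 56 passed, against 7.38% of all genes. In CPM both knockout libraries exceeded both WT libraries for 19 of 56 segments (17.6% of all genes) and were below both for 2 (16.1% of all genes). As a share of Ighv reads, both knockout libraries were above both WT libraries for 11 of the 56 and below both for 7. A share of Ighv reads has no counterpart over all genes. The median log2 fold change over the 56 segments was 0.87, close to the 1.02 of the Ighv total, and 48 had a value above 0 (49% of all genes). The level of whole libraries moved with these counts, and its part in them was not tested: the lowest CPM fell on WT replicate 2 for 43 of the 56 segments, and the highest on knockout replicate 1 for 36. Without knockout replicate 1 the median was 0.13, without WT replicate 2 it was 0.46, without WT replicate 1 it was 2.43 and without knockout replicate 2 it was 1.20. Segments that pass a filter through the libraries where they are high are more likely to differ, so the counts describe the tested segments only.

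The 5 segments that DESeq2 called were all of the Ighv1 family, which holds 82 of the 147 segments. How many of the 56 tested segments belong to this family was not counted, so the calls are not read as a trait of it. Ighv1-66 (ENSMUSG00000095519, chromosome 12, 115593110 to 115593591) had 61.6 and 20 reads in WT and 912 and 592 in the knockout. Both knockout libraries were far above both WT libraries, from 1.75 ± 1.21 to 33.1 ± 10.9 CPM (SD, n = 2), with a log2 fold change of 4.22 (SE 0.60, adjusted p = 0.844 with edgeR and 3.55e-11 with DESeq2). As a share of Ighv reads it took 0.0850% and 0.125% in WT and 0.846% and 1.35% in the knockout, so that it was also higher relative to the other segments. Of its 31-base words 47.4% occur in another segment, and its counts were settled without any tie between libraries.

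Ighv1-85 (ENSMUSG00000096150, chromosome 12, 116000028 to 116000461) is the functional segment at the D-distal end of the locus in this annotation. It had 61.6, 38.1, 499.9 and 403 reads, with a mean of 2.16 ± 0.635 CPM in WT and 19.8 ± 3.56 CPM in Cyba -/- mice (log2 fold change 3.19, SE 0.32, adjusted p = 0.844 with edgeR and 1.16e-13 with DESeq2). Its share was 0.0850% and 0.239% in WT and 0.464% and 0.921% in the knockout, without overlap. Ighv1-42 (chromosome 12, 114937113 to 114937544) had 99.96, 61.1, 614 and 343 reads and shares of 0.138%, 0.383%, 0.569% and 0.785% (log2 fold change 2.59, SE 0.43, DESeq2 adjusted p = 1.74e-05). In both segments the knockout was higher in CPM and in share. Ighv1-74 (chromosome 12, 115802648 to 115803080) had 140, 113, 660 and 578 reads (log2 fold change 2.30, SE 0.20, DESeq2 adjusted p = 1.39e-13). Its shares of 0.193% and 0.710% in WT and 0.612% and 1.32% in the knockout overlapped, with means of 0.452% and 0.966%. Of the 31-base words 75.4% in Ighv1-85, 62.9% in Ighv1-42 and 61.1% in Ighv1-74 occur in other segments. The counts of these segments therefore depend on how the authors' estimation divided reads. Ighv1-84, the segment nearest to Ighv1-85 by such words, was not settled.

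Ighv1-71 (chromosome 12, 115742205 to 115742647) had 36.5, 69.1, 1277 and 415 reads (log2 fold change 4.02, SE 0.75, DESeq2 adjusted p = 3.15e-07), but it cannot be read alone. It is identical to Ighv1-62-2 at 358 of 359 aligned bases, and the 1 differing base lies near the start of the coding sequence. Both stretches are shown with that base in capitals, to show how little separates the reads of the pair.
Ighv1-62-2, chr12:115446818-115446850: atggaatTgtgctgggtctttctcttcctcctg
Ighv1-71, chr12:115742615-115742647: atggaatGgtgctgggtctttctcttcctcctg
Ighv1-62-2 had 432, 103, 947 and 486 reads. The pair together had 469, 173, 2225 and 902 reads, or 19.9 and 7.75 CPM in WT against 99.5 and 38.8 CPM in the knockout, and 0.647% and 1.08% of Ighv reads against 2.06% and 2.06%. The knockout libraries were above the WT libraries for the pair, with a smaller distance than for Ighv1-71 alone.

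**Figure D4:**
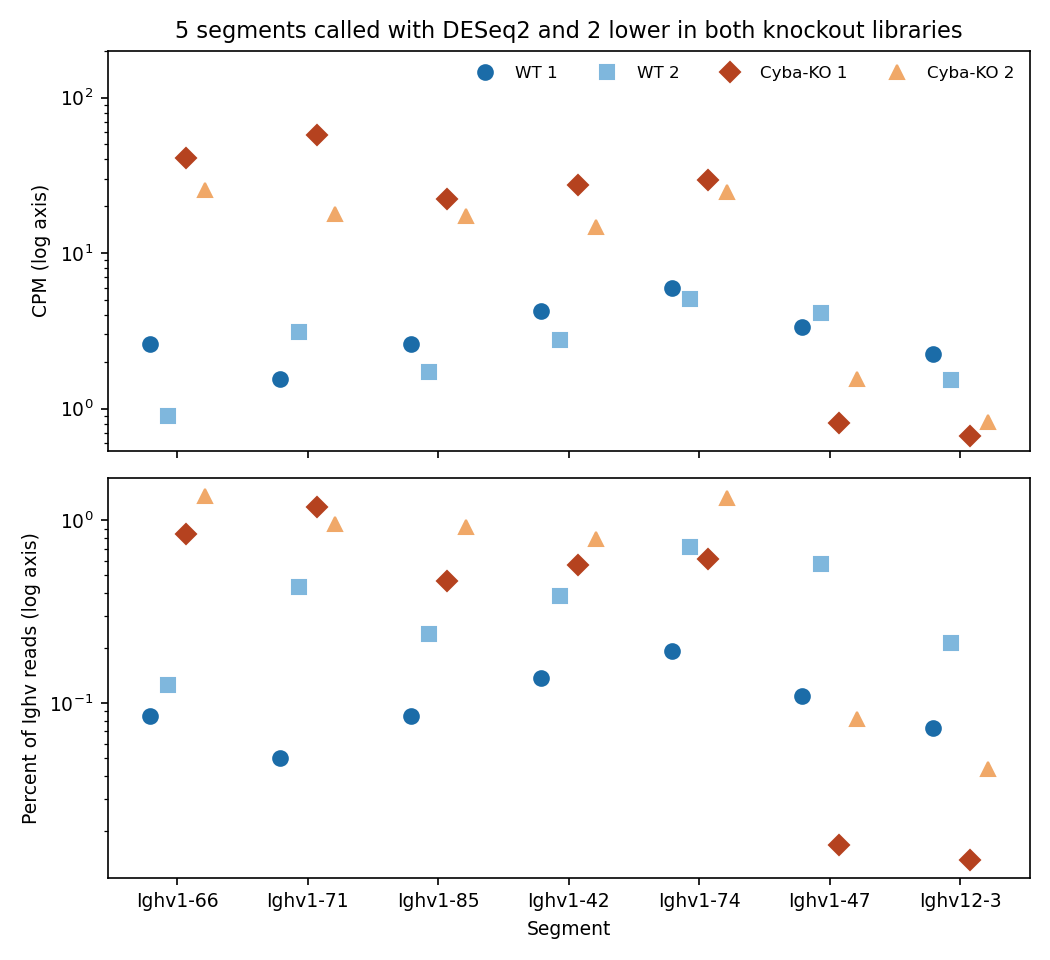
CPM (upper panel) and percent of Ighv reads (lower panel), both on log axes, of the 5 segments called with DESeq2 and of Ighv1-47 and Ighv12-3, 1 point per library. In CPM both knockout libraries lie above both WT libraries for the first 5 segments and below them for the last 2, whereas in percent of Ighv reads Ighv1-74 overlaps.

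In CPM only 2 of the 56 tested segments were lower in both knockout libraries. Ighv1-47 (chromosome 12, 114991108 to 114991580) had 79.0, 92.0, 18.0 and 36.0 reads, with means of 3.74 ± 0.553 and 1.18 ± 0.525 CPM (change on the log2 scale -1.66, SE 0.42, adjusted p = 0.844 with edgeR and 0.370 with DESeq2). Ighv12-3 (chromosome 12, 114366521 to 114366954), the B-1 segment named above, had 53, 34, 15 and 19 reads, with means of 1.89 ± 0.509 and 0.744 ± 0.103 CPM (change on the log2 scale -1.34, SE 0.38, edgeR adjusted p = 0.844). Neither passed with these tests, but DESeq2 gave no adjusted p for Ighv12-3. With the replicate number as a block in edgeR, Ighv1-47 passed (adjusted p = 0.0336) and Ighv12-3 did not (adjusted p = 0.0874). Their shares were also lower in both knockout libraries, at 0.0731% and 0.213% against 0.0139% and 0.0434% for Ighv12-3. These are segments with few 31-base words in common with others, 10.6% and 2.17%, and their counts were settled without a tie between libraries. Ighv11-2, named after its values were seen because it shares the known specificity of Ighv12-3, behaved otherwise, with 2697, 53, 2990 and 531 reads or 3.72%, 0.332%, 2.77% and 1.21% of Ighv reads, high in both libraries numbered 1.

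By family, Ighv1 dominated every library. Its 82 segments took 47.2% and 63.2% of Ighv reads in WT and 58.2% and 63.4% in the knockout (two-sided exact permutation p = 0.667), with WT replicate 1 the lowest. In that library Ighv6 took 12.6%, of which 93.8% was Ighv6-3, against 2.44%, 8.08% and 6.84% in the others. Ighv8 took 6.83%, 1.92%, 3.17% and 3.15%. Ighv7 took 6.06% and 8.03% in WT and 5.64% and 6.01% in the knockout. Ighv2 took 5.27% and 3.43% against 2.48% and 2.49%, but 74.2% of it in WT replicate 1 was the unsettled Ighv2-9-1. Ighv15, with a single segment, had 0 reads in WT replicate 1, which allows a share of up to 0.00414%. Pseudogenes took between 0.0632% and 0.423% of Ighv reads.

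Usage along the locus gave no difference that 4 libraries could show. The families Ighv2 and Ighv5, near the D segments, together took 11.5%, 10.1%, 11.0% and 7.49% (two-sided exact permutation p = 0.667). Ighv5-2, the segment closest to the D end among functional ones and known for frequent rearrangement in early B-cell precursors, had 39, 1, 62.3 and 31 reads and was named after its values were seen. With the locus cut into 3 equal lengths, the D-proximal part of 47 segments took 32.2% and 30.3% in WT and 28.8% and 25.3% in the knockout. These values did not overlap, but that order was not tested and rests on the reading of Ighv1-55 in WT replicate 2. At its next higher reading the D-proximal share of WT replicate 2 would fall between those of the knockout libraries. The D-distal share of WT replicate 2 would rise, since Ighv1-55 lies in that part. The middle part of 61 segments took 42.5%, 41.4%, 46.8% and 35.0%, and the D-distal part of 39 segments 25.3%, 28.3%, 24.4% and 39.7%. The high distal value was that of knockout replicate 2, where Ighv1-72 alone held 9.11%. The first and last segments with reads, the outermost ones, were Ighv2-1 with 1, 0, 0 and 1 reads and the pseudogene Ighv1-86 with 0, 0, 3.03 and 4.03 reads. Of the 5 segments called with DESeq2, Ighv1-66, Ighv1-71, Ighv1-74 and Ighv1-85 lie in the D-distal part and Ighv1-42 in the middle. The D-distal part holds 39 of all 147 segments, and how many of the 56 tested segments lie there was not counted. No clustering of calls along the locus was tested.

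**Figure D5:**
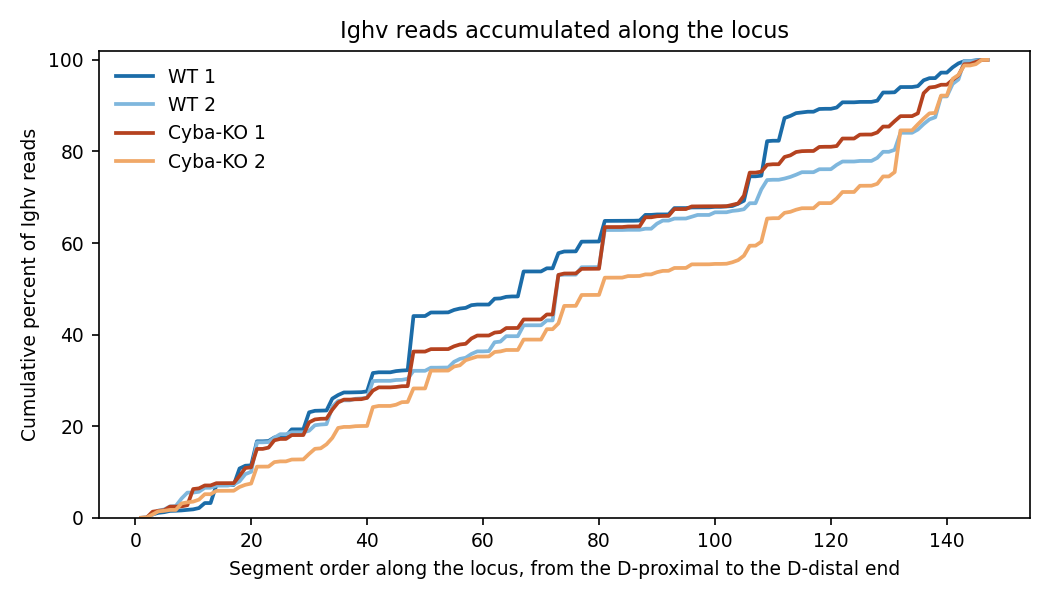
Cumulative percent of Ighv reads along the 147 segments in locus order, from the D-proximal to the D-distal end, with 1 line per library. The tallest step of WT replicate 1 is Ighv6-3 (11.8%), and that of knockout replicate 2, near the D-distal end, is Ighv1-72 (9.11%).

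Genes that act on the heavy chain locus were compared through fixed lists, chosen with earlier results of these data known. Of 20 genes of recombination and locus transcription, all were tested, 7 had a log2 fold change above 0 and 13 below, the median was -0.051, and 0 passed with edgeR or DESeq2. Rag1, a subunit of the recombinase, had 0.763, 1.62, 0.850 and 5.72 CPM, with only knockout replicate 2 apart, and Rag2 had 2.92, 2.02, 3.31 and 2.11 CPM. Dntt, the polymerase that adds bases at the joins, had 43.0, 42.0, 49.7 and 26.9 CPM, and Pax5, the B-lineage factor needed for recombination of distal segments, had 1.36, 2.29, 0.716 and 9.03 CPM. Knockout replicate 2 was thus the highest library for Rag1 and Pax5, and the same library had the highest share of D-distal reads, a relation that was not tested. The list did not move as 1 in that library. Pou2f1 and Pou2f2 were also highest there. Yy1 (182.4, 185.2, 181.5 and 169.4 CPM) and Dntt were lowest there, and Rag2 and Ezh2 were highest in another library. All 12 B-cell genes had a log2 fold change above 0 (median 0.77) and 0 passed with either tool. DESeq2 gave no adjusted p for Ms4a1, Ebf1, Bank1, Fcrl1, Fcer2a and Cr2, so for these only edgeR gave a result. Of 10 genes of B-cell precursors 7 were tested, 6 of them above 0 (median 0.55), and 0 passed. Here DESeq2 gave no adjusted p for Vpreb1, Vpreb3 and Igll1. Over all tested genes, 49% had a log2 fold change above 0, and 17.6% had both knockout libraries above both WT libraries in CPM. Vpreb3, a protein of the pre-B receptor assembly, had 0.763, 0.809, 2.55 and 3.40 CPM, without overlap of the genotypes (log2 fold change 1.91, SE 0.33, edgeR adjusted p = 0.844). Vpreb1 (0.339, 0.539, 0.695 and 0.998 CPM) did not overlap either, whereas the other tested precursor genes, Igll1, Rag1, Rag2, Dntt and Erg, did.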

How the data were processed

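RNA was sequenced from lineage-negative bone marrow of 4 mice, and groups came from the sample titles. Per the labels' protocols, libraries were made with the TruSeq RNA kit v2 from 2 micrograms of total RNA. Salmon and DESeq2 are listed as tools, and GRCm38 as build, in the submitters' processing notes, without versions. The transcript set and the use of strand are not given in the sources used here. The authors deposited estimated counts (expected counts per gene and lane) and a second kind of table of TPM per gene and lane, both with decimal points missing from part of the numbers, which is why the TPM tables are recorded as another unit than TPM.

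Numbers were written with up to 6 digits, and a number with at least 3 decimals had lost its point. Each count was read so that the 4 lanes of a library agreed and its ratio to TPM fitted the transcript length. Libraries were loosely tied by a t distribution with 3 degrees of freedom and a natural log scale of 0.2. For immunoglobulin genes the scale was 0.457 and each library had its own level, estimated from 40 segments settled without a tie. Genes entered the tests when no library total had an expected error above 5% and above 1 read, which left 22054 of 22520 genes, and 20334 with no tie. In simulated tables damaged and repaired in the same way, 125 of 147 Ighv segments were kept and 0 of these were wrong, although the simulated truth came from the same repair.

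Lanes were summed, and totals were rounded for tests. The main test was edgeR 4.0.16 (R 4.3.3), quasi-likelihood, with TMM factors, the default filter and Benjamini-Hochberg adjustment over all genes. The SE was derived from the log2 fold change and its F statistic. In a simulated comparison of 13970 genes the main test called 9 of 50 genes changed 2-fold and 44 of 47 changed 4-fold, and also 54 of 13778 unchanged genes. The changed genes were drawn from genes other than immunoglobulin genes, with noise independent between libraries. These counts therefore do not give the sensitivity for Ighv segments. In the data themselves the test called 0 of 13804 genes. DESeq2 1.42.0, the likelihood ratio test, limma 3.58.1 (voom), other scalings and filters, a replicate block, the repair without tie and leaving out each library were alternatives. Single values were compared with two-sided exact permutation tests. Repair, shares and sequence words used Python 3.11.15 and numpy 2.4.6. Names, coordinates and sequences came from GENCODE vM21. Named segments were the 10 with the highest mean share, the first in each library, those passing with edgeR or DESeq2, up to 5 per direction by edgeR p among those without overlap, and the outermost ones. The members and lists were chosen with earlier results of these data known. At the smallest Ighv total, in WT replicate 2, the share of a single segment has a 95% Wilson interval of at most 0.463 percentage points to either side. This holds at the most probable readings and covers counting error only. The larger share of the Ighv1 family has a wider interval.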

Additional observations from a re-analysis of the deposited data

How the results depend on the processing

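With edgeR's quasi-likelihood test 0 of 56 segments passed, and 14 had an unadjusted p under 0.05. The count stayed at 0 under DESeq2 size factors, library sizes alone, no filter (104 segments), limma-voom, the repair without tie (36 segments), library totals without immunoglobulin genes and without each library in turn (0 to 0). It was 5 with the DESeq2 Wald test and 5 with the likelihood ratio test. With the replicate number as a block it was 17 segments (16 higher), at a background of 7.38%. Libraries of the same number deviated together (correlation 0.60 over 13804 genes), but 2 pairs do not show that the numbers pair the mice. The median log2 fold change of the tested segments ran from 0.85 to 1.17 over these settings and from 0.13 to 2.43 with 1 library left out. Of 62 settings of the 9 single values, 60 kept their direction. Chosen after seeing the data were the settled segments only and the other readings of Ighv1-55 and Ighv1-19 in WT replicate 2. The exceptions were the number of segments at equal depth, at -0.84 with functional segments only, and Ighv reads per constant read, at 0.022 (log2) with Ighv1-19 at its next lower reading. The difference in the leading share was -5.43 percentage points with the other reading of Ighv1-55 and -1.25 with that of Ighv1-19. TPM was not run for that number, which needs reads. Leaving out 1 library kept the direction in 31 of 36 cases. The differences of knockout minus WT then ran from -8.19 to 0.55 percentage points for the 5 most abundant segments, from -2.37 to 13.6 for the Ighv1 share, from -3.26 to 0.29 for the D-proximal families, from -0.23 to 0.14 (log2) for Ighv reads per constant read and from -0.028 (without WT replicate 2) to 2.07 (log2) for total CPM.

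Several log2 fold changes turned sign. With limma-voom Ighv1-15 was at 0.19 and Ighv1-55 at 0.50, and with the replicate block at 0.15 and 0.41. With 1 library left out the ranges were -1.34 to 1.96 for Ighv1-15, -0.46 to 2.16 for Ighv1-26, -1.07 to 3.92 for Ighv1-53, -1.47 to 2.52 for Ighv1-55, -0.68 to 1.05 for Ighv1-78, -0.68 to 1.56 for Ighv3-6, -1.74 to 4.06 for Ighv6-3 and -0.57 to 1.51 for Ighv7-1. The cause was not tested. Ighv1-71, Ighv1-74 and Ighv1-85 were not settled without the tie between libraries, so their calls rest on it. Depth limits segments near the floor of 3 reads, most of all in WT replicate 2, where 105 segments had a read.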
